A study of Mus musculus with 12 samples.

Results

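Rn45s, Malat1, Neat1, Gas5, Snhg1 and Snhg8 are the abundant named noncoding RNAs of these mouse liver libraries. They were chosen by symbol, and they were proposed for their high counts and for earlier results of the same data, so their levels are given as a description. They make up 6 of the 23420 gene rows in each count table, and all 6 passed the filter on low counts in each of the 6 comparisons made. Gene expression was measured in livers of wild type and Siah2 KO mice of both sexes, with 3 mice in each of 4 groups. These are wild type females (WTF), Siah2 KO females (KOF), wild type males (WTM) and Siah2 KO males (KOM). SIAH2 is a ubiquitin ligase, and the comparison asks whether its loss changes transcript levels in the liver at the time of day sampled. All mice were of C57BL/6 background, ate normal chow under a 12:12 light-dark cycle and were about 20 weeks old, and livers were taken at ZT10, 10 h after lights on. The KO mice were Siah2-/- from the germline, so no cell type was singled out. The wild type and KO mice came from related lines set up from a cross of heterozygotes rather than from the same litters. The methods describe individual livers while the sample labels speak of pooled RNA, so p-values measure the spread between these samples, whatever their source. Mice are named by their numbers.

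These RNAs are linked to separate steps of RNA metabolism. Rn45s is the precursor of the large ribosomal RNAs, which RNA polymerase I makes in the nucleolus from many near-identical gene copies. Malat1 and Neat1 are long noncoding RNAs of the nucleus. Malat1 collects in nuclear speckles, which store splicing factors, and Neat1 is the scaffold of paraspeckles. Gas5, Snhg1 and Snhg8 are host genes of small nucleolar RNAs (snoRNAs), which sit in their introns and guide the modification of ribosomal RNA. The spliced host transcripts carry little coding sequence, and the decay of Gas5 and Snhg1 by nonsense-mediated decay makes their level sensitive to translation.

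The libraries held between 1293688 and 4056144 counted reads. Levels are given as CPM, counts scaled to a library of 1000000. Siah2 had 11.5 to 16.97 CPM in WTF and 9.63 to 12.5 CPM in KOF, and 16.8 to 27.1 CPM in WTM and 9.42 to 17.4 CPM in KOM. Its log2 fold change was -0.34 ± 0.30 (SE) in females and -0.67 ± 0.29 in males, with edgeR adjusted p of 0.641 and 0.9999. The place of the deletion relative to the counted 3′ end is not stated in these sources, so the counts of Siah2 are no check of genotype. Hepatocyte markers were high in every library, with a summed level of 24848 to 42577 CPM. The library of WTF 1091 stood apart from the rest. Its counts differed from those of the other WTF mice more than in any other pair of a group, at 47.9 and 51.0 chi-square units for each degree of freedom against 7.45 to 25.1 for the remaining pairs. Values that moved most without this library are given with and without it.

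Rn45s had the highest count in each of the 12 libraries. The libraries prime on poly(A), so its counts are reads assigned to this symbol and no measure of precursor abundance in the liver. Whether these reads came from the precursor or from the large ribosomal RNAs themselves was not tested. In WTF it took 11.7%, 8.16% and 5.68% of all counts in mice 1089, 1090 and 1091. In KOF it took 6.44%, 7.96% and 14.9% in mice 1070, 1104 and 1105. The male libraries held 9.50%, 12.7% and 10.1% in WTM 1055, 1086 and 1087, and 6.48%, 17.9% and 9.31% in KOM 1075, 1076 and 1081. The groups overlapped. The 3 WTM shares lay closest together, and the lowest and the highest of the other groups were further apart. The widest 95% Wilson interval among the shares ran from 14.86% to 14.97% (KOF 1105), so counting error was small beside the spread between mice. Intervals of this kind cover the counting error of reads only, and the methods mention no molecular identifiers.

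**Figure D1:**
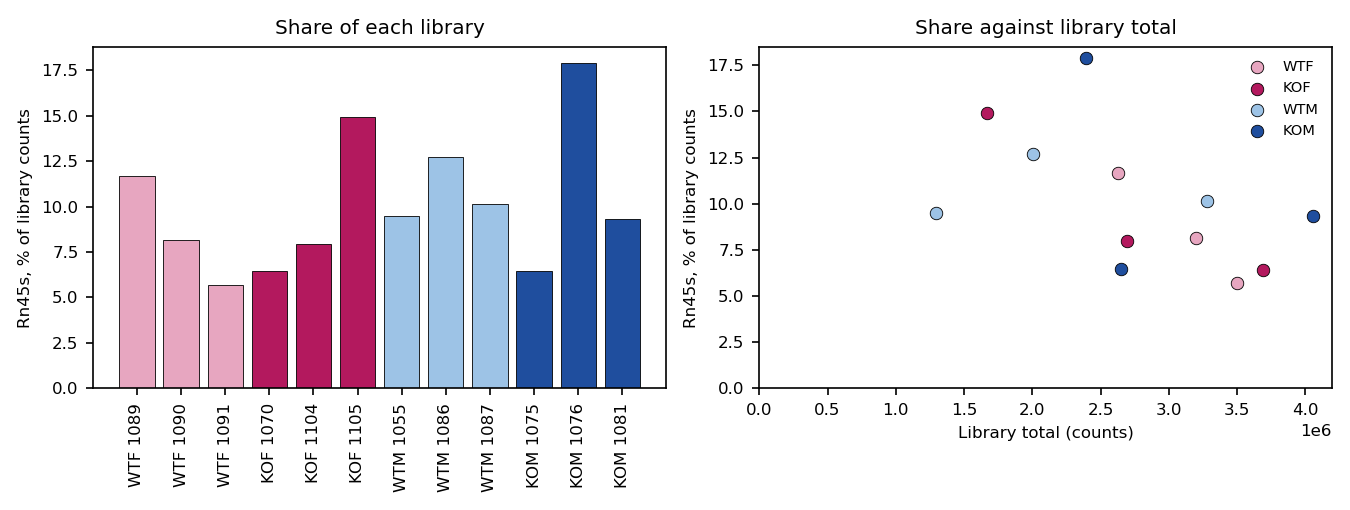
Rn45s as a percentage of all counts in each of the 12 libraries (left, bars from 0) and against the library total in counts (right, points), coloured by group. The shares run from 5.68% in WTF 1091 to 17.9% in KOM 1076, and all 4 groups hold libraries below 10%.

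The mean share of Rn45s was 10.5% in KO and 9.64% in wild type mice, a difference of 0.852 percentage points (exact permutation test within sex, two-sided, n = 6 and 6, p = 0.725). The difference became -0.0316 without KOF 1105 and -0.625 without KOM 1076, so its sign rested on these mice. Females averaged 9.14% and males 11.0%, a difference of -1.87 points (exact permutation test within genotype, two-sided, n = 6 and 6, p = 0.43). Neither difference exceeded the spread between mice. The standard deviation over the 12 mice was 3.67 percentage points.

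Because Rn45s took so much of a library, its share sets how many reads are left for other genes. Leaving Rn45s out would raise the share of every other gene by a factor between 1.06 and 1.22, depending on the mouse. The other 5 RNAs together held between 0.260% and 0.441% of the counts. Levels below are given as CPM after trimmed mean (TMM) scaling over all 12 libraries, with scaling factors from 0.901 in WTF 1091 to 1.06 in WTF 1089. The lowest factor belonged to the library with the lowest Rn45s share, 5.68%, so the scaling is no plain correction for Rn45s. On this scale Rn45s averaged 84114 ± 24169 CPM (SD, n = 3) in WTF, 97754 ± 45875 in KOF, 108266 ± 17753 in WTM and 114537 ± 63409 in KOM. The order of these means is not informative, since each differs from its neighbour by less than the standard deviation of either group.

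Malat1 ranked between 33 and 105 by read count among the genes of a library. These reads come from the 3′ end of transcripts and were not divided by length. Priming on poly(A) counts only RNA that can be primed, so the levels of Malat1 and Neat1 need not stand for all their RNA. In WTF its levels were 2397, 1992 and 1389 CPM in mice 1089, 1090 and 1091, and in KOF they were 1738, 2065 and 2377 CPM in mice 1070, 1104 and 1105. In WTM 1055, 1086 and 1087 they were 3008, 1544 and 1591 CPM, and in KOM 1075, 1076 and 1081 they were 1572, 2330 and 1815 CPM. The highest and the lowest values were both from wild type mice, and all groups overlapped. The group means ran from 1906 CPM in KOM to 2060 CPM in KOF, a range narrower than the standard deviation of any group. KO against wild type differed by 0.08 ± 0.28 (SE) on the log2 scale in females and by -0.11 ± 0.24 in males, less than its error in both.

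Neat1, which lies next to Malat1 on chromosome 19 (chr19:5824708-5845480 and chr19:5795690-5802672, GRCm38.p6), ranked between 417 and 1389. Its levels in WTF 1089, 1090 and 1091 were 330, 105 and 185 CPM, and in KOF 1070, 1104 and 1105 they were 129, 333 and 186 CPM. The males gave 314, 186 and 160 CPM in WTM 1055, 1086 and 1087, and 205, 250 and 325 CPM in KOM 1075, 1076 and 1081. Within each group the highest mouse had between 1.58 and 3.14 times the level of the lowest. The group means, 207 CPM in WTF, 216 in KOF, 220 in WTM and 260 in KOM, differed from their neighbours by less than the standard deviation of each group. KO against wild type differed by 0.05 ± 0.44 on the log2 scale in females and by 0.25 ± 0.24 in males.

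Gas5 ranked between 166 and 303. The WTF mice 1089, 1090 and 1091 had 439, 499 and 886 CPM, both the lowest and the highest value of the series. The KOF mice 1070, 1104 and 1105 had 826, 729 and 644 CPM. Males differed little, with 593, 597 and 625.4 CPM in WTM 1055, 1086 and 1087 and 616, 592 and 562 CPM in KOM 1075, 1076 and 1081. The coefficient of variation was 3.72% over the 6 males and 26.5% over the 6 females. By mean the order was 590 CPM in KOM, 605 in WTM, 608 in WTF and 733 in KOF. KOF lay above all males, while WTF spanned every other group. KO against wild type differed by 0.26 ± 0.30 on the log2 scale in females and by -0.05 ± 0.13 in males.

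Snhg1 ranked between 592 and 1856 and had the lowest count of the 6, 108 reads in WTM 1055. Levels were 90.2, 127 and 299 CPM in WTF 1089, 1090 and 1091, and 146, 143 and 125 CPM in KOF 1070, 1104 and 1105. They were 82.6, 119 and 109 CPM in WTM 1055, 1086 and 1087, and 113, 114 and 123 CPM in KOM 1075, 1076 and 1081. WTF 1091 held more than 2 times the level of any other mouse. The means were 104 CPM in WTM, 117 in KOM, 138 in KOF and 172 in WTF, and only KOF and the males did not overlap among these groups. The female log2 fold change of KO against wild type was -0.33 ± 0.39 with this mouse and 0.34 without it, and the male value was 0.15 ± 0.17.

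Snhg8, which ranked between 342 and 1214, was lowest in wild type females. WTF 1089, 1090 and 1091 had 215, 222 and 133 CPM. KOF 1070, 1104 and 1105 had 440, 352 and 343 CPM. WTM 1055, 1086 and 1087 had 364, 344 and 316 CPM, and KOM 1075, 1076 and 1081 had 415, 377 and 399 CPM. All 3 WTF mice were below all 9 other mice, a pattern shown by 350 of 9806 genes (3.57%). The means were 190 CPM in WTF, 342 in WTM, 378 in KOF and 397 in KOM. WTM overlapped KOF, and KOF overlapped KOM. The KO mice were also above the wild type mice of their sex in males, without overlap. In bulk liver, fewer cells of a type that expresses a gene and less RNA per cell cannot be told apart.

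**Figure D2:**
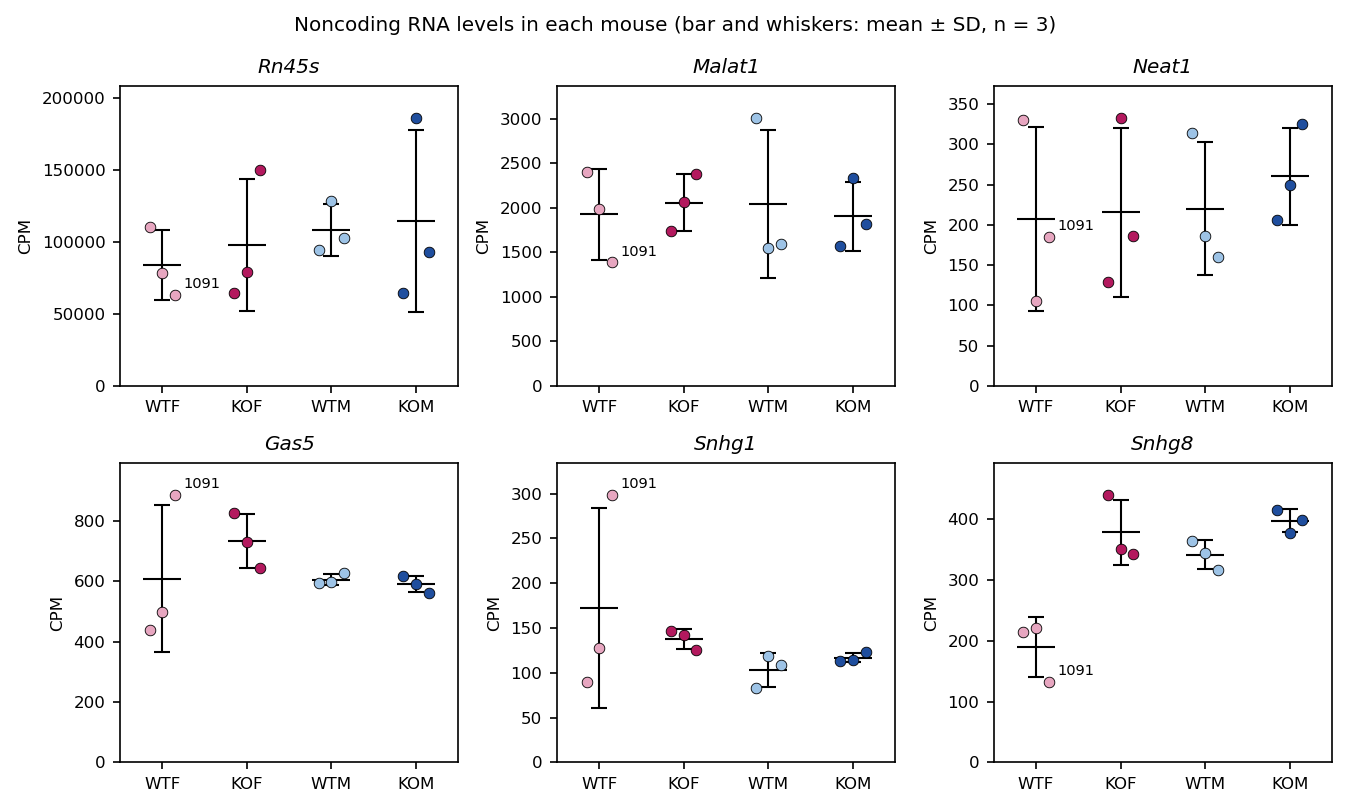
Level of each noncoding RNA in each mouse (points) in CPM after TMM scaling, by group, with the mean ± SD of 3 mice (horizontal bar and whiskers) and all axes from 0. The mouse WTF 1091 is labelled, and the 3 WTF points of Snhg8, at 133 to 222 CPM, lie below the other 9.

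The comparison within females asks which transcripts depend on Siah2 in that sex. By the edgeR quasi-likelihood test none of the 6 RNAs passed an adjusted p of 0.05 between KOF and WTF, where 0% of 9465 genes were called, with 1478 at an unadjusted p under 0.05 and 0 called by limma-voom. Snhg8 had the largest change of the 6. It averaged 378 ± 53.8 CPM (SD, n = 3) in KOF and 190 ± 49.6 CPM in WTF, a log2 fold change of 0.98 ± 0.26 (SE), with an edgeR adjusted p of 0.128. DESeq2 called it with a log2 fold change of 1.001 and an adjusted p of 0.0170, against 3.7% of 8185 genes called. Snhg8 was also the 1 RNA of the 6 whose groups did not overlap, which 23.4% of the genes showed in females.

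The call of Snhg8 depended on the mice in the test. Without WTF 1091 the log2 fold change was 0.79 with an edgeR adjusted p of 0.0245, against a background of 9.64% of genes called. DESeq2 without this mouse gave an adjusted p of 0.00226 against 12.2%. With WTF 1089 or 1090 left out, DESeq2 gave adjusted p of 0.0441 and 0.0188, where 2.52% and 3.58% of genes were called. With all mice, edgeR called Snhg8 with no filter beyond 1 count (adjusted p = 0.0370, background 2.82%) and in 1 fit of all 4 groups (adjusted p = 0.0183, background 4.35%). With a KO female left out in turn, the DESeq2 adjusted p was between 0.105 and 0.290, and edgeR did not call it either, so no call was made with 2 KO females. The fold change itself stayed between 0.79 and 1.13 on the log2 scale in all 21 settings.

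**Figure D3:**
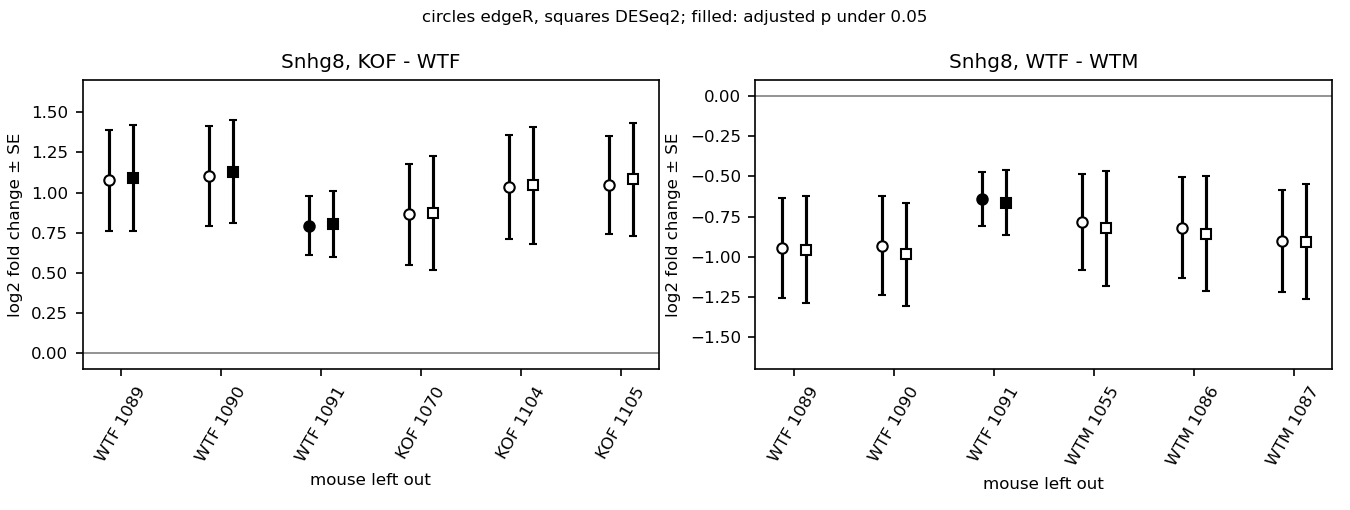
Log2 fold change ± SE of Snhg8 with each mouse left out in turn, for KOF against WTF (left) and WTF against WTM (right), by edgeR (circles) and DESeq2 (squares), filled where the adjusted p is under 0.05. The fold changes keep their direction, between 0.79 and 1.13 in females, while edgeR passes the threshold only without WTF 1091.

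Gas5 also depended on WTF 1091. Without it the female log2 fold change was 0.64, with an edgeR adjusted p of 0.0506, and DESeq2 called the gene with an adjusted p of 0.0144, where edgeR called 9.64% and DESeq2 12.2% of all genes. With it, the edgeR adjusted p was 0.739. With all 3 WTF mice the Gas5 groups overlapped. WTF 1089, 1090 and 1091 had 439, 499 and 886 CPM, and the KOF mice had 644 to 826 CPM.

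In males the same comparison called none of the 6, with 0% of 8823 genes called by edgeR, 357 at an unadjusted p under 0.05, 0 by limma-voom and 6 (0.037%) by DESeq2. Snhg8 averaged 397 ± 19.2 CPM in KOM and 342 ± 23.9 CPM in WTM (n = 3 each). Its log2 fold change of 0.21 ± 0.14 had an edgeR adjusted p of 0.9999. The male groups of Snhg8 did not overlap, which was so for 8.87% of genes, and those of the other 5 RNAs did.

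With both sexes combined, none of the 6 RNAs was called, where edgeR called 0.0111% of 9020 genes, 510 genes had an unadjusted p under 0.05, limma-voom called 0 and DESeq2 1 (0.0056%). The log2 fold change of Snhg8 was 0.54 ± 0.21 with an edgeR adjusted p of 0.866. This fit had no term for sex, so differences between the sexes enter its error. With a term for sex the edgeR value was 0.60 ± 0.18 with an adjusted p of 0.678. The 6 KO mice had 343 to 440 CPM of Snhg8 and the 6 wild type mice 133 to 364 CPM, so the groups overlapped by way of the wild type males. None of the 6 RNAs had groups without overlap here, beside 0.2% of genes. The other log2 fold changes lay between -0.15 and 0.15.

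The difference between the sexes, the female change less that of the males, was tested directly. None of the 6 RNAs was called, against 0.255% of 9806 genes by edgeR and 3.32% of 7824 by DESeq2, with 1382 genes at an unadjusted p under 0.05 in edgeR and 28 called by limma-voom. For Snhg8 the difference was 0.78 ± 0.30 on the log2 scale with an edgeR adjusted p of 0.234 and a DESeq2 adjusted p of 0.109, so a larger change in females than in males was not shown. For Gas5 it was 0.31 ± 0.33 with all mice. Without WTF 1091 it was 0.69, and its adjusted p was 0.0683 in edgeR and 0.0120 in DESeq2, where 5.15% and 9.58% of genes were called.

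**Figure D4:**
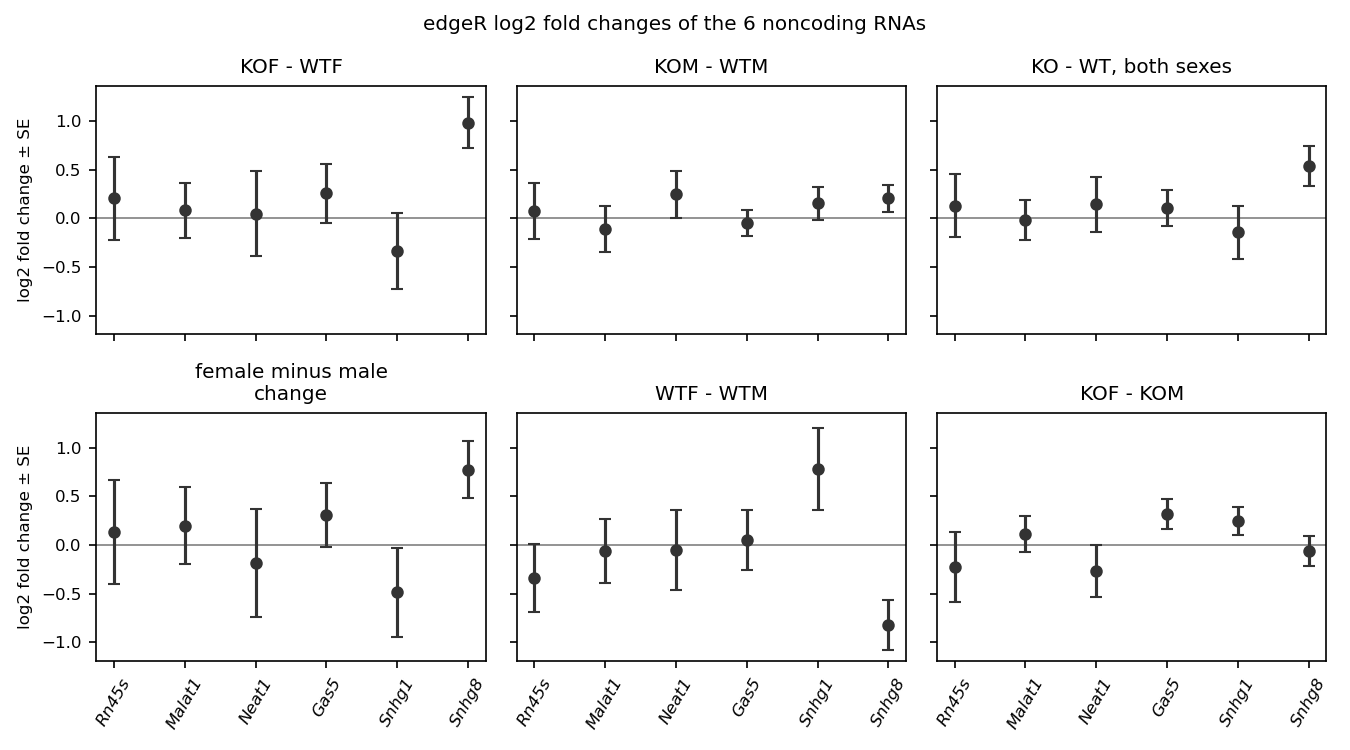
edgeR log2 fold change ± SE of the 6 RNAs in each comparison, on 1 shared axis. Snhg8 is farthest from 0 in KOF against WTF (0.98) and in WTF against WTM (-0.82), and none of the values shown passes an adjusted p of 0.05.

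Wild type females and wild type males were compared to describe the sexes without the deletion. This comparison shares the WTF mice with the one within females, so a low level in WTF enters both. None of the 6 was called by edgeR, where 1.39% of 9335 genes were called, 1423 had an unadjusted p under 0.05 and limma-voom called 108. Snhg8 had a log2 fold change of -0.82 ± 0.25 in WTF relative to WTM, with an edgeR adjusted p of 0.165. DESeq2 gave an adjusted p of 0.0482, against 3.74% of genes called. The WTF and WTM levels of Snhg8 did not overlap, as was so for 22.7% of genes. Without WTF 1091 the edgeR adjusted p was 0.0453 and the log2 fold change -0.64, where 7.73% of genes were called, and the DESeq2 adjusted p was 0.0127 against 10.4%. In 1 fit of all 4 groups edgeR gave 0.0306 with all mice, against 5.15%. With any of the other 5 mice left out, neither tool called it. Snhg1 had a log2 fold change of 0.78 ± 0.42 with WTF 1091 and 0.07 without it.

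Between KO females and KO males edgeR called 11.5% of 9102 genes and none of the 6 RNAs. At an unadjusted p under 0.05 there were 2380 genes, and limma-voom and DESeq2 called 1090 and 884 (9.91%). Gas5 and Snhg1 were higher in all 3 KOF than in all 3 KOM mice, 2 of 6 beside 30.7% of all genes whose groups did not overlap, 14.7% with KOF higher. For Gas5 the log2 fold change was 0.32 ± 0.15 with an edgeR adjusted p of 0.196, and for Snhg1 it was 0.25 ± 0.15 with 0.320. Snhg8 had nearly equal means, 378 and 397 CPM, and a log2 fold change of -0.06 ± 0.15. With KOF 1104 left out, DESeq2 called Neat1 with a log2 fold change of -0.75 and an adjusted p of 0.0271, against 8.73% of genes called.

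Markers of other liver cells also differed between groups. The summed level of 5 endothelial markers was 224 to 270 CPM in WTF, above all other mice, with 204 to 218 in KOF, 170 to 213 in WTM and 156 to 175 in KOM. Its part in the Snhg8 values was not tested. WTF 1091 had the lowest summed level of bile duct markers (2 of 5 tested), 8.86 CPM against 17.95 to 55.9 in the others. It was also lowest in stellate cell markers, 99.5 CPM against 105 to 319, and in fat markers (1 of 3 tested), 42.6 against 47.9 to 118. In endothelial markers it was the highest, 270 CPM against 156 to 231. The part of these markers in the Gas5 and Snhg1 values of this mouse was not tested. Of 5 red blood cell markers in the table, the globin genes Hba-a1, Hba-a2, Hbb-b1 and Hbb-b2 were at 0 in all libraries, so the list rests on 1 gene, Alas2, the first enzyme of heme synthesis in red cell precursors, with 8.54 to 26.3 CPM in females and 83.3 to 154 in males. Kupffer cell markers had 471 to 665 CPM in WTF, 342 to 793 in KOF, 85.5 to 586 in WTM and 106 to 239 in KOM. Markers of lymphocytes and other immune cells were higher in all females than in all males. They had 10.3 to 25.1 CPM in WTF, 7.80 to 15.4 in KOF, 2.44 to 6.49 in WTM and 2.22 to 6.68 in KOM. The part of these 2 lists in the values of the 6 RNAs was not tested. Fat markers had 42.6 to 118 CPM, with Plin1 at 0. Pancreatic acinar markers stayed at or below 1.20 CPM, with Prss2 and Cpa1 at 0.

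The 6 RNAs differed in how much they varied within a group. The pooled within-group standard deviation on the log2 scale was 0.61 for Neat1 and 0.55 for Rn45s, at percentile 94.1 and 90.8 of the 6717 genes whose mean was 10 CPM or more. It was 0.47 for Snhg1 (percentile 82.0), 0.38 for Malat1 (66.5), 0.29 for Gas5 (40.3) and 0.24 for Snhg8 (23.9), with a median of 0.32 over those genes. Without WTF 1091 the value fell to 0.12 for Gas5 and 0.13 for Snhg8, at percentiles 3.39 and 4.84, and to 0.21 for Snhg1. It changed little for Rn45s (0.57), Malat1 (0.36) and Neat1 (0.66), so the spread of these 3 did not come from that mouse.

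Of 21 relations computed, the 15 pairs of RNAs and each share against the library total, none had a Benjamini-Hochberg adjusted permutation p under 0.05. The largest was that of Gas5 with Snhg1, with Pearson's r = 0.75 (permutation p = 0.00445, adjusted 0.0934) and a Spearman coefficient of 0.59 (permutation p = 0.0480, adjusted 0.308). It was 0.45 without the 2 mice farthest from the median of Gas5, WTF 1089 and 1091. Within females r was 0.80 (exact permutation p = 0.0236) and within males -0.17 (exact permutation p = 0.660), so it did not hold in both sexes. Without WTF 1091 r was 0.61. Malat1 with Snhg1 gave r = -0.63 (permutation p = 0.0237, adjusted 0.202) and a Spearman coefficient of -0.42 (permutation p = 0.175, adjusted 0.368). It had the same sign within females, with r = -0.92 (exact permutation p = 0.00694), and within males, with r = -0.77 (exact permutation p = 0.0944). Without WTM 1055 and WTF 1091, the mice farthest from the median of Malat1, r was -0.18, so the pooled value rested on them, and without WTF 1091 alone it was -0.52. The same mouse set the relations of Snhg8. Gas5 with Snhg8 had r = -0.03 with WTF 1091 (permutation p = 0.913, adjusted 0.913) and 0.77 without it, and Snhg1 with Snhg8 had r = -0.56 with it (permutation p = 0.0779, adjusted 0.315) and 0.32 without it. The values without WTF 1091 are descriptions with no test. The share of Rn45s against the library total gave r = -0.52 (permutation p = 0.0853, adjusted 0.315) and a Spearman coefficient of -0.65 (permutation p = 0.0255, adjusted 0.308), and r = -0.73 without the smallest and the largest library. Within females r was -0.94 (exact permutation p = 0.00694) and within males -0.20 (exact permutation p = 0.710). All values of a mouse come from the same library.

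For each RNA the 3 genes whose log2 CPM was most like it over the 12 mice were named, among 6717 genes, with Pearson's r as a description. Rn45s was followed most closely by Pou5f2 (r = 0.94), Jph1, a junctophilin (0.93), and Opcml (0.90), each with a mean of 11.4 to 18.04 CPM. Malat1 was most like Akap13, an anchoring protein of protein kinase A (0.89), the chromatin protein gene Dek (0.83) and Adcy9, an adenylate cyclase (0.82). The values for Neat1 were lower, with Trim44 at 0.80 and the transcription factor Sp1 and Ylpm1 at 0.78. Gas5 was most like Tprgl (0.94), the prolyl hydroxylase gene Egln2 (0.94) and Lsm14b (0.93). Snhg1 was most like the mitochondrial ubiquitin ligase gene Mul1 (0.95), Ccdc28b (0.94) and Ndufb5, a subunit of respiratory complex I (0.93). Without WTF 1091 these 3 values for Snhg1 were 0.83, 0.79 and 0.72. For Snhg8 the genes were the translation factor Eif5a (0.96), Ensa (0.95) and the importin Kpnb1 (0.95), with r from 0.89 to 0.90 without WTF 1091. No member was among the 3 genes most like another member.

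Many genes whose messages follow the translation machinery, ribosomal protein genes among them, begin with a C at the transcription start followed by further pyrimidines, the 5′ terminal oligopyrimidine tract that marks snoRNA host transcripts too. The annotated starts of the RNAs were therefore read from the RefSeq promoter table (GRCm38.p6), which held 4 of the 6. It has no entry for Rn45s or Neat1. The windows below hold 20 bases before the start and 30 from the start on, on the transcribed strand, and capitals mark the run of pyrimidines that begins with C at the start. They lie at chr3:123508307-123508356 (minus strand) for Snhg8, chr19:8723467-8723516 (plus strand) for Snhg1, chr1:161034581-161034630 and chr1:161035146-161035195 (plus strand) for the first and second annotated start of Gas5, and chr19:5802643-5802692 (minus strand) for Malat1, which hosts no snoRNA and is shown beside them.
Snhg8: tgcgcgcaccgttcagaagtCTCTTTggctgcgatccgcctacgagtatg
Snhg1: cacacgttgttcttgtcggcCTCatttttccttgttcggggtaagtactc
Gas5, first start: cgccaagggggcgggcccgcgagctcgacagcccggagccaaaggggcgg
Gas5, second start: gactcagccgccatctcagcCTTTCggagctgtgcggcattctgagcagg
Malat1: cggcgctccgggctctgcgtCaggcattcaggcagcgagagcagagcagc

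The run held 6 pyrimidines in Snhg8, 5 at the second start of Gas5, 3 in Snhg1, 1 in Malat1 and 0 at the first start of Gas5. A run of at least 5 was present at 2.51% of all 32851 promoters, at 4 of 15 starts of snoRNA host genes (26.7%) and at 13 of 72 starts of ribosomal protein genes (18.1%). A run of at least 3 was present at 5.81%, 40.0% and 20.8% of them. The 15 host gene starts include those of Snhg8, Snhg1 and Gas5, so they are no separate set to compare these 3 with. The other host genes with such a run were 1110038B12Rik (6 pyrimidines), Snhg7 (5) and 2410006H16Rik (4). These counts describe the annotated letters, and the starts used in these livers were not measured.

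Snhg8, Gas5 and Snhg1 were set beside the other snoRNA host genes of the table, of which 13 were tested in each comparison, these 3 included. None of the 13 was called by edgeR between KO and wild type, in females, in males or with both sexes combined. The shares of all genes called there were 0%, 0% and 0.0111%. In females 2 of the 13 had an unadjusted p under 0.05 in edgeR, beside 1478 of all 9465 genes. Of the 13, 9 had a positive and 4 a negative log2 fold change, beside 4474 and 4991 of all genes. Their median was 0.23, beside -0.03 for all genes. DESeq2 called 1 host gene higher, Snhg8, and 1 lower, Snhg9, beside 3.7% of all genes. Snhg9, named after its values were seen, had 23.1, 24.9 and 7.96 CPM in WTF 1089, 1090 and 1091, and 2.98, 4.05 and 6.02 CPM in KOF 1070, 1104 and 1105. Its log2 fold change was -2.17 ± 0.49, and edgeR gave an adjusted p of 0.106 where DESeq2 gave 0.00824. Hosts of snoRNAs thus had values in both directions in females. Snhg3, the host gene with the next highest level after the members, had a mean of 48.0 ± 40.4 CPM in WTF and 83.1 ± 24.7 in KOF, and its log2 fold change was 0.77 ± 0.50.

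Between the sexes edgeR called more host genes. In wild type mice, where it called 1.39% of all genes, it called Snhg11. This gene had 5.54 ± 2.33 CPM in WTF and 53.4 ± 46.6 in WTM, a log2 fold change of -3.20 and an adjusted p of 0.0336. In KO mice it called 4 of 13. Snhg11 (-2.41, adjusted p = 0.000432), Snhg3 (-0.92, adjusted p = 0.0337) and 1110038B12Rik (-1.03, adjusted p = 0.00853) were lower in KOF than in KOM, and 2410006H16Rik (0.91, adjusted p = 0.00735) was higher. The background of this comparison was 11.5% of genes.

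Mouse WTF 1091 departed from the others in several host genes and in both directions. Gas5 and Snhg1 had their highest level of the 12 mice there, while 5 of the 13 host genes lay more than 1 log2 unit under their median over the mice. Not all of these were particular to this mouse. Snhg11 was also more than 1 unit under its median in WTF 1089 and 1090 and in KOF 1070 and 1104. Snhg3 was lower still in WTF 1089 (-1.92, against -1.49 in WTF 1091). Snhg8 was under its median in all 3 WTF mice, and Snhg4 had only 7 counts in WTF 1091. Snhg6, named after its values were seen, was at -4.70 log2 units from its median in this mouse, with 3 counts against 38 to 198 in the others. No other mouse had more than 2 host genes lying more than 1 log2 unit under their median.

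**Figure D5:**
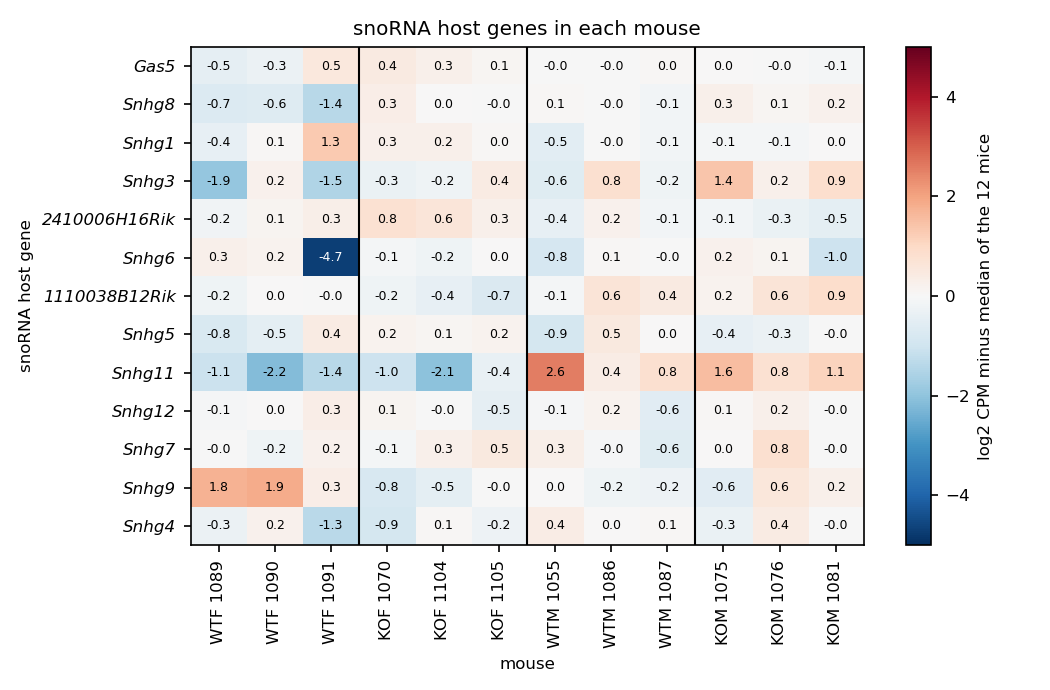
Level of the 13 tested snoRNA host genes in each mouse, as log2 CPM minus the median of the 12 mice (colour and printed value), with vertical lines between groups. The column of WTF 1091 holds high values of Gas5 and Snhg1 and the lowest value of the map, -4.70 for Snhg6.

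Other genes of the same pathways were listed too. Within each sex edgeR called 0% of all genes between KO and wild type. The lack of calls there is therefore no result about these lists. It called 0.0111% of all genes with both sexes combined and 0.255% for the difference between the sexes. Between wild type sexes it called 1.39%, and between KO sexes 11.5%. Of RNA polymerase I factors, which make the Rn45s transcript, 13 were tested in females and 11 in males, and edgeR called none in any comparison. Their median log2 fold change of KO against wild type was -0.11 in females and 0.08 in males. Of 24 tested genes for ribosomal RNA processing, none was called between KO and wild type, and 1, Gar1, which encodes a protein of snoRNA particles, was higher in KOF than in KOM (log2 fold change 1.68). Paraspeckle proteins, the partners of Neat1 (8 tested), and speckle and SR proteins, which gather where Malat1 does (16 tested), gave no edgeR call in any comparison. Nonsense-mediated decay factors (14 or 15 tested) gave none either. Of 16 nuclear exosome genes, which trim and degrade nuclear RNA, edgeR called 2 higher in KOF than in KOM, C1d (0.72) and Exosc7 (0.57). It called 11.5% of all genes there, and none of the 16 in the other comparisons. For KOF against KOM, DESeq2 called C1d (adjusted p = 0.0384) but not Exosc7 (adjusted p = 0.0840). For KOF against WTF, DESeq2 called 2 of 14 exosome genes higher and 1 lower, beside 3.7% of all genes.

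Cytosolic ribosomal protein genes had no call between KO and wild type in edgeR, among 74 tested in females and 73 in males. In either sex 0% of all genes were called there. In females 50 of the 74 had a negative log2 fold change, beside 4991 of all 9465 genes. Their median was -0.23, beside -0.03 for all genes. An unadjusted edgeR p under 0.05 was found for 22, beside 1478 of all 9465 genes. DESeq2 called 3 higher and 9 lower of 72, beside 3.7% of all genes. The difference between the sexes was called for Rpl23a (-1.43, edgeR adjusted p = 0.0474). Between KOF and KOM, where 11.5% of all genes were called, 6 of 74 were higher and 9 lower, Rps3 (0.85) among the former and Rps19 (-1.03), Rpl8 (-0.74) and Rpl13a (-0.78) among the latter.

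Among other listed long noncoding RNAs, Mir22hg, the host gene of a microRNA, had a mean of 118 CPM over the 12 mice, just below the 133 CPM of Snhg1, and the next were Xist at 46.3 and Kcnq1ot1 at 42.8 CPM. Its log2 fold change in females was 0.83 ± 0.29 with an edgeR adjusted p of 0.203. Xist, the RNA of the inactive X chromosome, was the 1 listed RNA called between the sexes in edgeR, with 96.8 ± 26.5 CPM in WTF and 0 in WTM. Of 132 listed symbols of small noncoding RNAs, 2 passed the filter in females. Snord89 had 31.4 ± 19.8 CPM in WTF and 5.03 ± 2.27 in KOF, a log2 fold change of -2.70 whose adjusted p was 0.108 in edgeR and 0.00142 in DESeq2. Snord104 was lower in KOF than in KOM (-0.92, edgeR adjusted p = 0.0118), and KOF against WTF gave -0.64 ± 0.37.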

How the data were processed

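Liver RNA of 12 mice was made into QuantSeq 3′ mRNA libraries, which prime on poly(A) and read the 3′ end of transcripts. The authors deposited whole read counts per gene symbol, one table per sex, without normalization. The submitters' processing notes name STAR, DESeq and mm10, and the sources do not state whether counting used strand, without which a gene and an antisense partner cannot be told apart. Of the rows, 27 carried a date in place of a symbol. They held 0.228% to 0.272% of the counts of a library, stayed in the totals and are not named.

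CPM were computed from the deposited counts with 1 TMM scaling over 12 libraries. Each comparison was fitted on all genes with edgeR 4.0.16 (filterByExpr, TMM, quasi-likelihood F test, two-sided, Benjamini-Hochberg, threshold 0.05) in R 4.3.3. DESeq2 1.42.0 and limma-voom (limma 3.58.1) were alternatives, with RLE scaling, library totals only, Rn45s left out of the table, other filters, thinned libraries, sex as a term, 1 fit of all 4 groups, and the omission of each mouse. DESeq2 with each mouse left out, and relations and spreads without WTF 1091, were added after the data were seen. Standard errors follow from the fold change and its test statistic. The prior count of log CPM was 3. Permutation tests used 100000 draws or all arrangements. The scripts were tested on simulated data. Other steps used Python 3.11.15 with scipy 1.17.1, numpy 2.4.6, pandas 2.3.3 and, for figures, matplotlib 3.10.9.

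The members, lists and rules were chosen with earlier results of these data known. Besides the 6 RNAs, genes were named that passed the edgeR threshold in a list (at most 4 per comparison, smallest p first), that were among the 3 highest of a list, or that were the 3 most like an RNA, and not every such gene is printed. Gene positions and promoters came from RefSeq tables of GRCm38.p6, the build called mm10.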

Additional observations from a re-analysis of the deposited data

Results flagged for a closer look

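Dixon's test was applied to 24 groups of 6 mice, by sex and by genotype for each RNA, and 3 values stood out from their group. Chance picks about 1 in 20 groups, and the groups share mice. Snhg1 in WTF 1091, at 299 CPM, was the highest of the wild type mice of both sexes, with the next at 127 CPM, and the highest of the females, with the next at 146 CPM. Snhg1 in WTM 1055, at 82.6 CPM, was the lowest of the males, with the next at 109 CPM. That library was the smallest of the series, with 1293688 counts, of which Snhg1 had 108. No explanation of either value was tested.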

How the results depend on the processing

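No paired analysis was possible because the groups share no mouse numbers. With edgeR on all mice none of the 6 RNAs was called. In females 1 RNA, Snhg8, was called by DESeq2, without a filter beyond 1 count (edgeR adjusted p = 0.0370) and in the fit of all 4 groups (0.0183), and in wild type females against males 1, Snhg8, by DESeq2 and in the fit of all 4 groups (0.0306). The other settings with all mice called 0. Leaving out each mouse gave 0 to 2 calls in females, and 0 to 1 for wild type females against males, for KO females against males and for the difference between the sexes. The leave-one-out difference in Rn45s share between KO and wild type ran from -0.625 to 1.66 points.

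Snhg8 kept its direction in all settings and comparisons. Log2 fold changes near 0 changed sign with all mice in Neat1 in females after thinning (-0.000325), with limma-voom in Rn45s in males (-0.0652), Malat1 (0.0197) and Snhg1 (0.0095) with both sexes combined and Gas5 between wild type sexes (-0.0309), and with library totals only for the last (-0.0248). The cause was not tested. With a mouse left out, by edgeR or DESeq2, they ran as follows. For KO against wild type in females, Rn45s ran from -0.25 to 0.45, Malat1 from -0.0911 to 0.28, Neat1 from -0.41 to 0.55 and Snhg1 from -0.65 to 0.35. In males, Rn45s ran from -0.46 to 0.37 and Malat1 from -0.28 to 0.28. With both sexes combined, Rn45s ran from -0.11 to 0.25, Malat1 from -0.10 to 0.16, Neat1 from -0.0043 to 0.33 and Snhg1 from -0.23 to 0.27. For the difference between the sexes, Rn45s ran from -0.31 to 0.68, Malat1 from -0.18 to 0.39, Neat1 from -0.67 to 0.32 and Snhg1 from -0.80 to 0.19. Between wild type sexes, Malat1 ran from -0.28 to 0.31, Neat1 from -0.59 to 0.28 and Gas5 from -0.39 to 0.20. Between KO sexes, Rn45s ran from -0.68 to 0.32, Malat1 from -0.0241 to 0.29 and Neat1 from -0.75 to 0.0047. In total 79 of 888 alternative log2 fold changes reversed, none of them of Snhg8.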
